A study of Mus musculus with 2 samples.

Results

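The genes described here are 36 genes of glycolysis, lactate handling and the pentose phosphate pathway, measured in midbrain of mouse embryos. They were taken by symbol from the 43346 annotated genes of the deposited tables, and all 36 were found in both libraries. The list holds 3 glucose and lactate transporters, 17 glycolytic enzymes, 4 bifunctional regulators of phosphofructokinase, 2 lactate dehydrogenase subunits, 6 genes of the pyruvate dehydrogenase E1 enzyme and its kinases, and 4 pentose phosphate enzymes. The tissue was midbrain at embryonic day 12.5 from strain B6NCrl, a C57BL/6N substrain, with both sexes mixed and no treatment or mutation in the labels. Replicate 1 pooled midbrains of 120 embryos and replicate 2 pooled midbrains of 88 embryos, and the 2 libraries form a single group. The input was 10 ng of RNA over 200 nt in size and the assay is labelled total RNA-seq. The libraries held 29430493 and 37381984 estimated counts in replicates 1 and 2, spike-in RNA included.

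Glycolysis splits glucose into pyruvate in the cytosol and yields ATP and NADH. Lactate dehydrogenase turns pyruvate into lactate and restores NAD+, while the pyruvate dehydrogenase complex sends pyruvate into mitochondria as acetyl-CoA. The pentose phosphate pathway branches off at glucose 6-phosphate and supplies NADPH and ribose for nucleotides. Dividing cells of many embryonic tissues, neural progenitors among them, are known for high glycolytic activity. Several steps are encoded by paralogs with known tissue preference, such as the neuronal enolase Eno2, the astrocytic aldolase Aldoc, and the muscle genes Eno3 and Pgam2.

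The tissue label was checked against marker lists, with levels given in TPM, a unit corrected for transcript length and scaled to the library. The 11 neuron markers, led by Tubb3 and Stmn2, summed to 2561 and 2467 TPM in replicates 1 and 2. The 11 markers of progenitors and radial glia, led by Vim and Fabp7, summed to 3312 and 3314 TPM. Non-neural markers were present as well, and every such list but muscle summed higher in replicate 2. The 11 red cell markers, led by Hbb-y and Hba-a2, summed to 15471 and 18110 TPM. The 7 mesenchyme markers, led by Col3a1 and Col1a1, summed to 1094 and 1547 TPM. The 8 endothelial markers, led by Egfl7 and Cldn5, summed to 158 and 182 TPM. The 8 markers of microglia and macrophages, led by C1qb and Fcer1g, summed to 108 and 134 TPM. No marker of these 6 lists was at 0 in either library, and muscle, in which 2 markers were at 0 in replicate 2, is described with the muscle-type enzymes. In bulk tissue, fewer cells of a type and less RNA per cell cannot be told apart, so the levels below are averages over all of these cells.

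Pyruvate kinase catalyses the last step of glycolysis, and Pkm encodes a pair of enzymes that differ by the choice between 2 neighbouring exons. Cells that include the upstream exon make PKM1, the form of adult neurons and muscle, and cells that include the downstream exon make PKM2, the form known from embryonic and dividing cells. The exons are shown because the isoform shares below rest on telling them apart. Both are 167 nt long and lie 372 nt apart on the plus strand of chromosome 9 in mm10, the upstream one at chr9:59675029-59675195 and the downstream one at chr9:59675568-59675734. Sequences are from GENCODE M21 transcripts, 5′ to 3′, and capitals mark the positions at which the pair differ.
M1 exon: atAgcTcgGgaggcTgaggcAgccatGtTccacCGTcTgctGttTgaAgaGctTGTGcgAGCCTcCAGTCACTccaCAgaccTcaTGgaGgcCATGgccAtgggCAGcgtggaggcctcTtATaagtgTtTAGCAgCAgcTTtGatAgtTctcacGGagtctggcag
M2 exon: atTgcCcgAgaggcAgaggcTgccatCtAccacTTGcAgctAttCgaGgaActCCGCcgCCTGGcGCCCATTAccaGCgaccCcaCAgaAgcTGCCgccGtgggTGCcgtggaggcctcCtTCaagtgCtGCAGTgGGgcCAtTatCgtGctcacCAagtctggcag
The exons differ at 64 positions and are alike at 103, which is 61.7% of their length.

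The transcript that holds the M2 exon made up most Pkm RNA in both pools. Pkm (ENSMUSG00000032294.12, chr9:59656368-59679375, plus strand) has 2 transcripts in the files, both protein coding and both listed at 2432 nt. The M1 transcript is 2041 nt in the later GENCODE M21 version from which the exon was read, and since TPM is computed per length, its level and the ratio of M2 to M1 rest on the length in the files. The M2 transcript stood at 1023 and 1118 TPM in replicates 1 and 2. The M1 transcript stood at 222 and 219 TPM. The M2 share was 82.2% and 83.6%, or 82.9 ± 1.00% (SD, n = 2 libraries), and the M1 share was 17.8% and 16.4%. M2 RNA was thus 4.61 and 5.10 times as abundant as M1 RNA, a mean ratio of 4.86 ± 0.34 (SD, n = 2). The deposited TPM intervals, which also cover how reads were divided between transcripts, ran from 977 to 1005 TPM for M2 and from 204 to 227 TPM for M1 in replicate 1. In replicate 2 they ran from 1077 to 1103 TPM for M2 and from 204 to 224 TPM for M1. The M2 intervals of the 2 pools did not overlap, and the M1 intervals did, although the deposited M2 level lay above its own interval in each library.

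Factors known to act on this exon choice were all expressed. Hnrnpa2b1 and Hnrnpa1, RNA-binding proteins known to repress the M1 exon together with Ptbp1, stood at 1144 and 1071 TPM and at 1013 and 969 TPM in replicates 1 and 2. Srsf3, a splicing factor known to favour the M2 exon, stood at 828 and 859 TPM. Ptbp1 itself stood at 159.8 and 167.5 TPM and its neural paralog Ptbp2 at 209 and 201 TPM, a pair added here after their values were seen. Rbm4 and Nek2, added in the same way, stood at 63.3 and 70.2 TPM and at 37.0 and 36.4 TPM. None of the 7 regulators examined was called different between pools by the rule given below. Their log2 ratios of replicate 2 to replicate 1 lay between -0.12 and 0.14. The exact binomial test gave 5 of them a Benjamini-Hochberg adjusted p under 0.05, 2 higher and 3 lower in replicate 2. Of all tested genes 22.9% passed in either direction, but these include genes with as few as 10 counts summed. That test passes smaller ratios at higher counts, so the 2 shares are not matched for depth. An unadjusted p under 0.05 was reached by 5 in that test and by 0 in edgeR's exact negative binomial test. Over all 18939 tested genes the counts were 6126 and 1327.

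**Figure D1:**
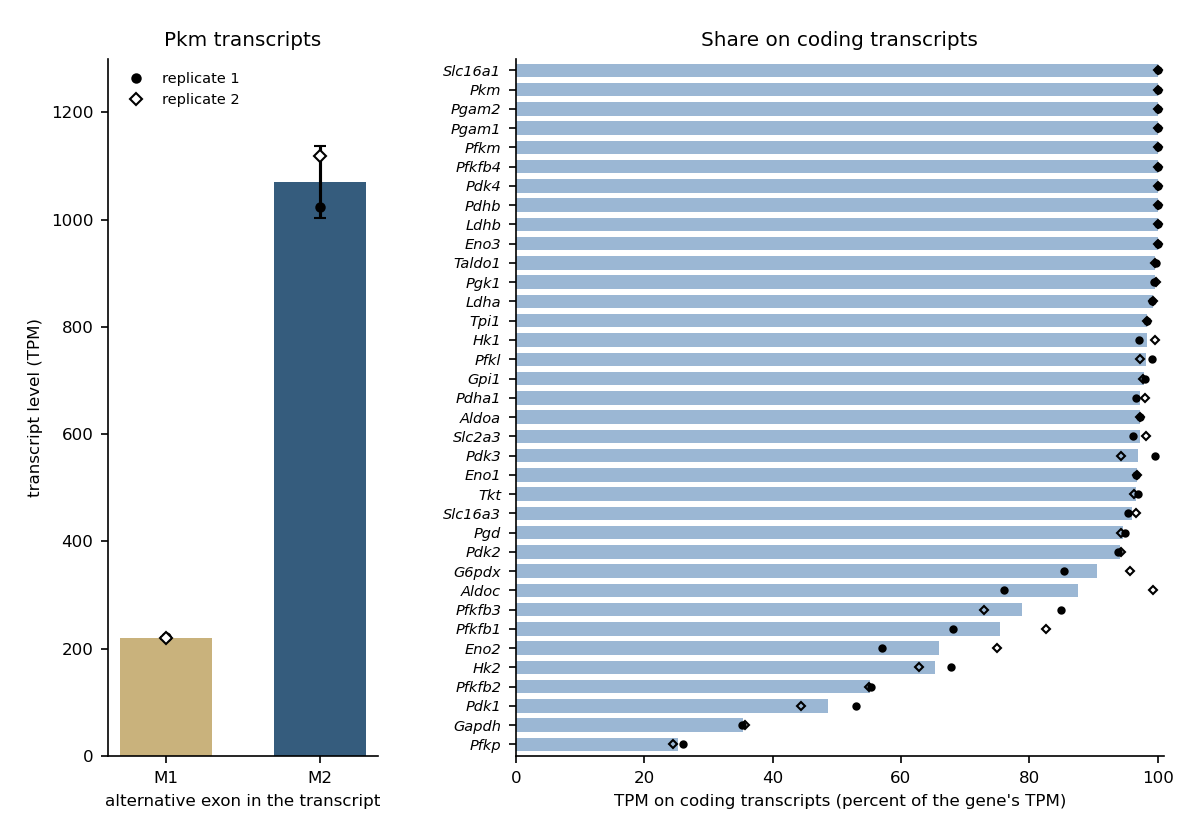
Left, level of the M1 and M2 transcripts of Pkm in TPM, with bars at the mean of 2 libraries, error bars of 1 SD and points for each replicate. Right, share of each gene's TPM on transcripts annotated as protein coding, as the mean of 2 libraries with points for each replicate; the M2 transcript holds 82.9% of Pkm RNA, and Pfkp, Gapdh and Pdk1 are the 3 genes under 50% coding.

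Together the 36 genes held 0.797% and 0.819% of the TPM of all annotated genes, a mean of 0.808 ± 0.0161% (SD, n = 2). The 5 with the highest TPM, Gapdh, Pkm, Eno1, Ldha and Pgam1, held 65.7% and 66.1% of that sum. In each library 3 of the 36 ranked among the top 100 nuclear protein-coding genes by TPM and 9 among the top 500. At the other end, the pyruvate dehydrogenase kinase gene Pdk4 was the single gene under 1 TPM, at 0.370 and 0.570 TPM from 22 and 43 counts. Levels therefore spanned more than 3 orders of magnitude within these pathways. The TPM of 12 of the genes in replicate 1 and 11 in replicate 2 lay outside their own deposited interval, so values close to each other should not be ranked by TPM alone.

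**Figure D2:**
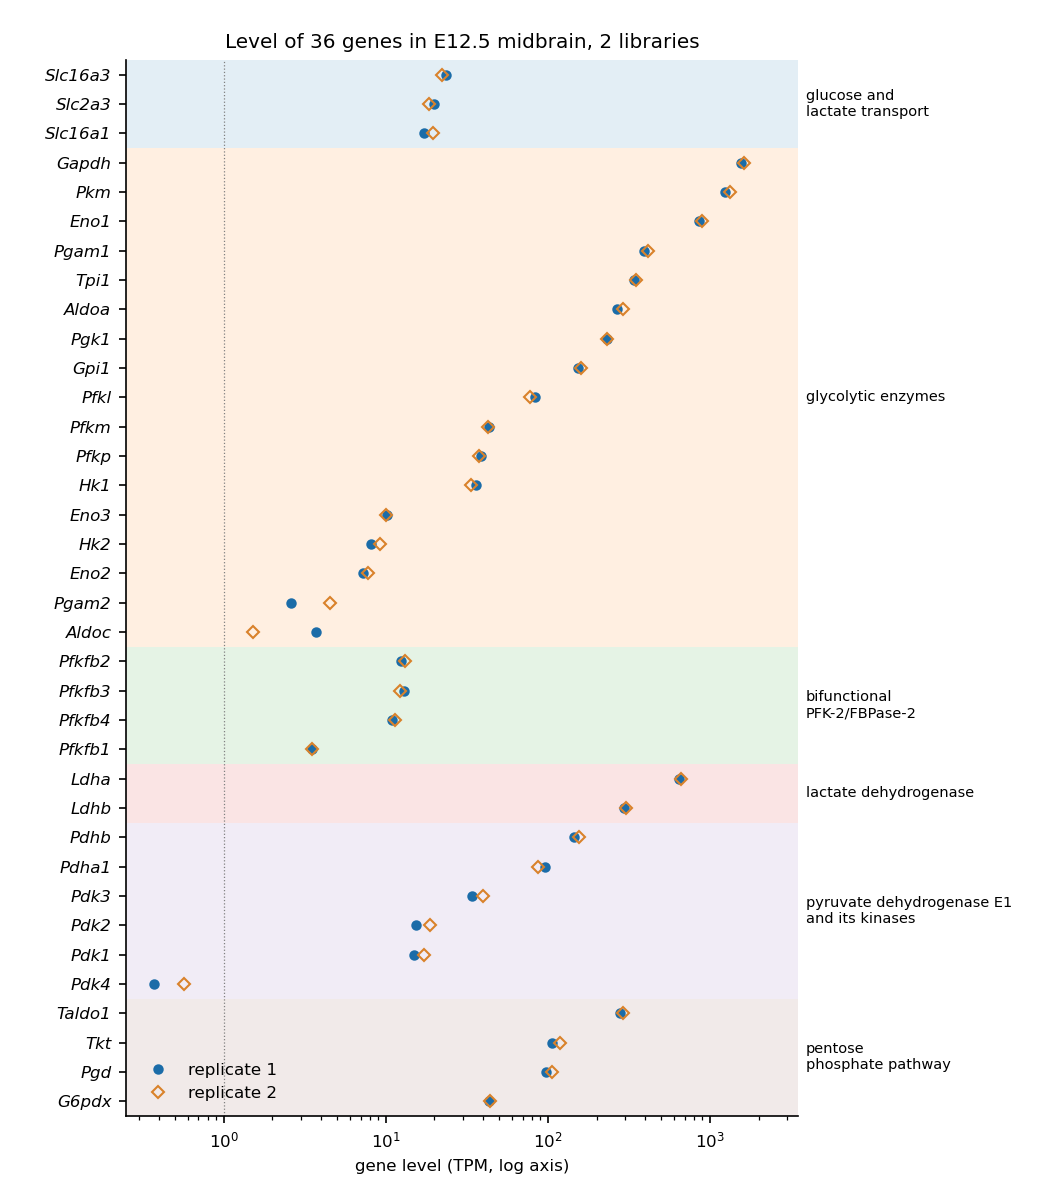
Gene level in TPM on a log axis for the 36 genes, grouped by role and ordered by mean level, with a filled circle for replicate 1 and an open diamond for replicate 2; the dotted line marks 1 TPM. The symbols nearly coincide except for Pgam2, Aldoc and Pdk4, which are low, and Pdk4 alone lies under 1 TPM.

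The transporters were expressed at similar, moderate levels. Slc2a3 encodes GLUT3, the glucose transporter known from neurons, and stood at 19.9 and 18.5 TPM in replicates 1 and 2. Slc16a3, which encodes the lactate exporter MCT4, stood at 23.6 and 22.2 TPM, and Slc16a1, which encodes MCT1, at 17.2 and 19.5 TPM. The mean levels were 19.2 ± 0.95, 22.9 ± 0.98 and 18.3 ± 1.58 TPM (SD, n = 2), so Slc2a3 and Slc16a1 did not differ beyond their spread. Slc16a3 held 55.5 ± 3.19% of the TPM of this transporter pair, but 36.4% of its estimated counts, which are not corrected for length. Among other transport genes, Slc2a1, which encodes the GLUT1 of endothelium and glia, was higher at 97.5 and 98.4 TPM. Bsg, which encodes basigin, the chaperone that carries MCT1 and MCT4 to the cell surface, stood at 435 and 485 TPM.

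Slc16a3 stood at close gene levels in the pools while the files divided it differently among its transcripts. Slc16a3-201 (2272 nt) held 76.8% of the gene in replicate 1 and 40.5% in replicate 2. Slc16a3-202 (2386 nt) held 7.39% and 36.9%. Both are coding, and the deposited TPM intervals were apart for each, at 14.6 to 19.6 against 5.31 to 11.8 TPM for the first and under 3.71 against 5.17 to 11.1 TPM for the second. No test was made of transcript shares, and 2 pools give no measure of how far such shares vary.

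Along glycolysis, transcript levels were lowest at the entry of glucose and highest in the lower pathway, with Pgk1 below its neighbours. Hk1 encodes the brain form of hexokinase, which traps glucose as glucose 6-phosphate, and stood at 35.9 and 33.6 TPM. Hk2, the inducible form, stood at 8.14 and 9.25 TPM. The pair summed to 43.4 ± 0.81 TPM (SD, n = 2), of which Hk1 held 80.0 ± 2.18%. Gpi1, the isomerase that follows, stood at 154 and 159.6 TPM, which is 3.61 times the hexokinase sum.

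Phosphofructokinase, the committed and most regulated step, summed to 162 ± 5.59 TPM (SD, n = 2). The liver-type gene Pfkl stood at 83.8 and 77.9 TPM, the muscle-type gene Pfkm at 43.6 and 42.7 TPM, and the platelet-type gene Pfkp at 38.8 and 37.8 TPM. Their shares were 49.8%, 26.6% and 23.6%, so all 3 subunit genes were expressed. Pfkp was the gene with the smallest coding share of the 36. A retained-intron transcript of 702 nt, Pfkp-210, held 44.5% and 42.0% of its TPM, and the coding transcript Pfkp-201 (2679 nt) held 21.9% and 19.8%. Counting coding transcripts alone, the shares of Pfkl, Pfkm and Pfkp were 60.1%, 32.6% and 7.31%.

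The next steps each had a single dominant gene. Aldoa, the ubiquitous aldolase, stood at 267 and 291 TPM and held 99.1 ± 0.60% of aldolase TPM (SD, n = 2). Tpi1, which interconverts the triose phosphates, stood at 339.8 and 352 TPM. Pgk1, the X-linked kinase that makes the first ATP of the pathway, stood at 232 and 231 TPM. Pgam1, the brain-type phosphoglycerate mutase, stood at 395 and 418 TPM and held 99.1 ± 0.30% of its pair. The enolase Eno1 stood at 856 and 899 TPM and held 98.0 ± 0.038% of enolase TPM. Aldolase, triose-phosphate isomerase, mutase and enolase thus stood at 6.48, 7.97, 9.45 and 20.6 times the hexokinase sum.

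Gapdh and Pkm had the highest gene levels of the 36, and the level of Gapdh depended on how its transcripts were counted. Gapdh, the dehydrogenase that makes glycolytic NADH and a common reference gene, stood at 1559.9 and 1635 TPM, ahead of Pkm at 1245 and 1337 TPM. However, Gapdh-208, an annotated processed transcript of 483 nt at chr6:125162871-125165590 (minus strand), held 63.8% and 63.3% of that TPM. All of its 483 bases, 426 of them coding, are shared with the coding transcript Gapdh-203 (1420 nt), so reads from either cannot be told apart over that stretch. Gapdh-208 received 34.1% and 33.6% of the estimated counts of the gene, against 61.4% and 61.0% for Gapdh-203. On coding transcripts alone Gapdh stood at 566 ± 23.4 TPM (SD, n = 2) and ranked 4 among the 36, behind Pkm, Eno1 and Ldha. With all of its counts placed on Gapdh-203, it stood at 847 and 895 TPM and ranked 2, close to Eno1 at 836 and 880 TPM by the same calculation. Gapdh was 36.8 times the hexokinase sum by gene TPM and 14.2 times by coding TPM. For Pkm, whose 2 transcripts are both coding and listed at equal length, these ratios were 29.7 and 32.5.

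**Figure D3:**
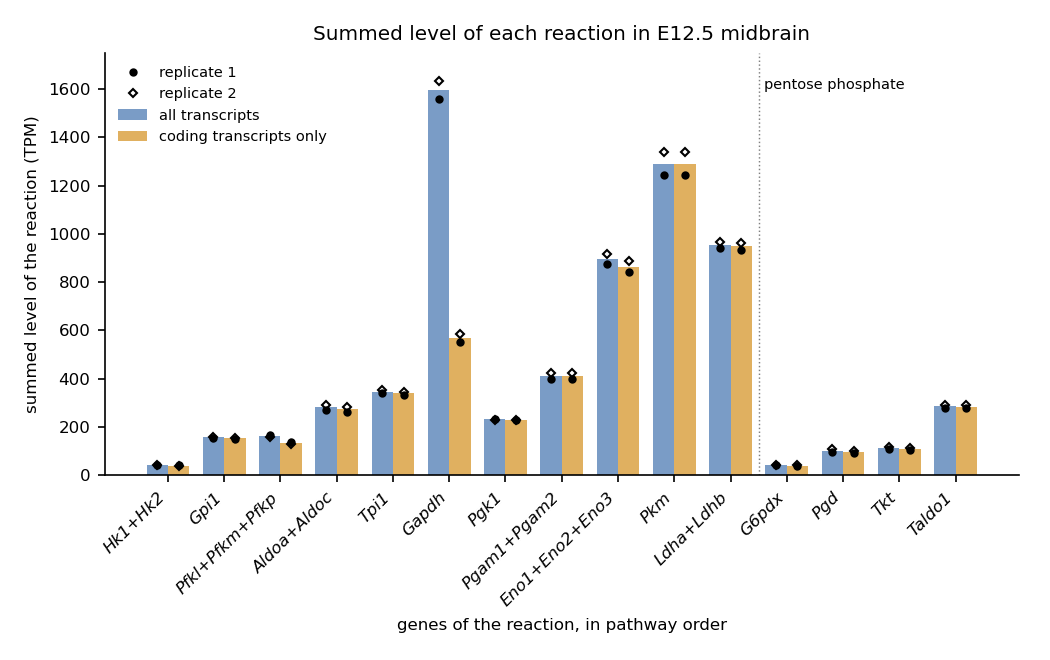
Summed level in TPM of the genes of each reaction, in pathway order, counting all transcripts or coding transcripts only, with bars at the mean of 2 libraries from 0 and points for each replicate. Levels are lowest at hexokinase (43.4 TPM) and glucose-6-phosphate dehydrogenase (43.7 TPM), and Gapdh is the reaction whose bar falls most when coding transcripts alone are counted, from 1597 to 566 TPM.

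The tissue-restricted paralogs were low. Eno2, the neuronal enolase, stood at 7.28 and 7.78 TPM and held 0.841 ± 0.011% of enolase TPM (SD, n = 2), while pan-neuronal Tubb3 stood at 929.6 and 906 TPM in the same libraries. Eno3, the muscle enolase, stood at 10.2 and 10.0 TPM from 208 and 283 counts, and held 1.13 ± 0.048%. By counts, which are not corrected for length, Eno2 was the higher of the 2, at 289 and 401. The TPM of Eno2 also lay below its own deposited interval in each library. Eno2 and Eno3 were the 2 genes of the 36 whose leading transcript differed between libraries, with deposited intervals that overlapped. Aldoc, known from astrocytes and radial glia, stood at 3.71 and 1.51 TPM. Pgam2, the muscle mutase, stood at 2.59 and 4.52 TPM.

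Most muscle markers were low beside Eno3 and Pgam2. Of the 14 muscle markers, 8 stayed under 1 TPM throughout, and the list summed to 26.3 TPM in each. The myogenic regulators Myod1 (0.030 and 0.050 TPM), Myog (0.24 and 0.10 TPM) and Myf5 (0.030 and 0 TPM) rested on 6 counts or fewer per library, and muscle creatine kinase, Ckm, on 2 and 0 counts. The sarcomere genes Myh3 (0.57 and 0.63 TPM), Myh8 (0.32 and 0.22 TPM), Tnnt3 (0.83 and 0.92 TPM) and Tnnc2 (0.62 and 0.44 TPM) were also under 1 TPM in both. Actin genes Acta1 (1.02 and 0.74 TPM) and Actc1 (3.49 and 3.80 TPM), with Myh7 (1.06 and 1.30 TPM) and Tnni1 (0.85 and 1.85 TPM), were low. The highest were Tnnt1 at 8.78 and 9.16 TPM and Mylpf at 8.40 and 7.07 TPM. Whether muscle contributed to Eno3 or Pgam2 was not tested.

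The bifunctional enzymes make and break fructose 2,6-bisphosphate, the activator of phosphofructokinase. The levels of 3 of their genes were close. Pfkfb2 stood at 12.5 and 13.3 TPM, Pfkfb3, the form whose kinase activity most exceeds its phosphatase activity, at 13.0 and 12.2 TPM, and Pfkfb4 at 10.9 and 11.4 TPM. Pfkfb1, the liver and muscle form, was lower at 3.51 and 3.49 TPM. Pfkfb3 led in replicate 1 and Pfkfb2 in replicate 2, with mean shares of 31.4 ± 1.72% and 32.1 ± 1.12% (SD, n = 2), so the pair did not differ beyond their spread. On coding transcripts alone Pfkfb4 had the highest mean share, at 36.2 ± 1.86%, against 32.2 ± 4.42% for Pfkfb3, which led in replicate 1. Pfkfb2 fell to 23.0 ± 1.28%.

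At the pyruvate branch point, lactate dehydrogenase genes were far more abundant than those of the pyruvate dehydrogenase E1 enzyme. Ldha, which encodes the LDHA subunit typical of lactate-producing tissue, stood at 645 and 665 TPM. Ldhb, which encodes the heart-type subunit, stood at 295 and 303 TPM. Ldha held 68.6 ± 0.099% of the pair (SD, n = 2), the smallest SD of a leading paralog's share among the 9 families after that of Eno1. Pdha1 and Pdhb encode the alpha and beta subunits of E1, which works as a tetramer with equal numbers of each. Pdha1 stood at 96.2 and 86.5 TPM and Pdhb at 145 and 156 TPM, so Pdhb was the higher in both libraries. Of the other genes for pyruvate, Dld, the shared E3 subunit, stood at 119.9 and 121 TPM, and Mpc2, a subunit of the mitochondrial pyruvate carrier, at 114 and 116 TPM.

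The 4 kinases that switch pyruvate dehydrogenase off were unequal. Pdk3 stood at 34.0 and 39.8 TPM and held 52.3 ± 0.19% of kinase TPM (SD, n = 2). Pdk2 stood at 15.4 and 18.7 TPM, and Pdk1, a known target of the hypoxia factor HIF-1, at 15.1 and 17.2 TPM. Pdk2 was higher than Pdk1 in both libraries by TPM, although means of 17.0 ± 2.36 and 16.1 ± 1.51 TPM lay within their spread. By estimated counts, which are not corrected for length, Pdk1 was the higher, at 953 and 1299 against 558 and 861. Pdk4, the form known for induction on fasting, held 0.659 ± 0.12%. Coding transcripts made up 48.7% of Pdk1 TPM on average, and on these alone its share of the kinases was 13.1 ± 1.46%.

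**Figure D4:**
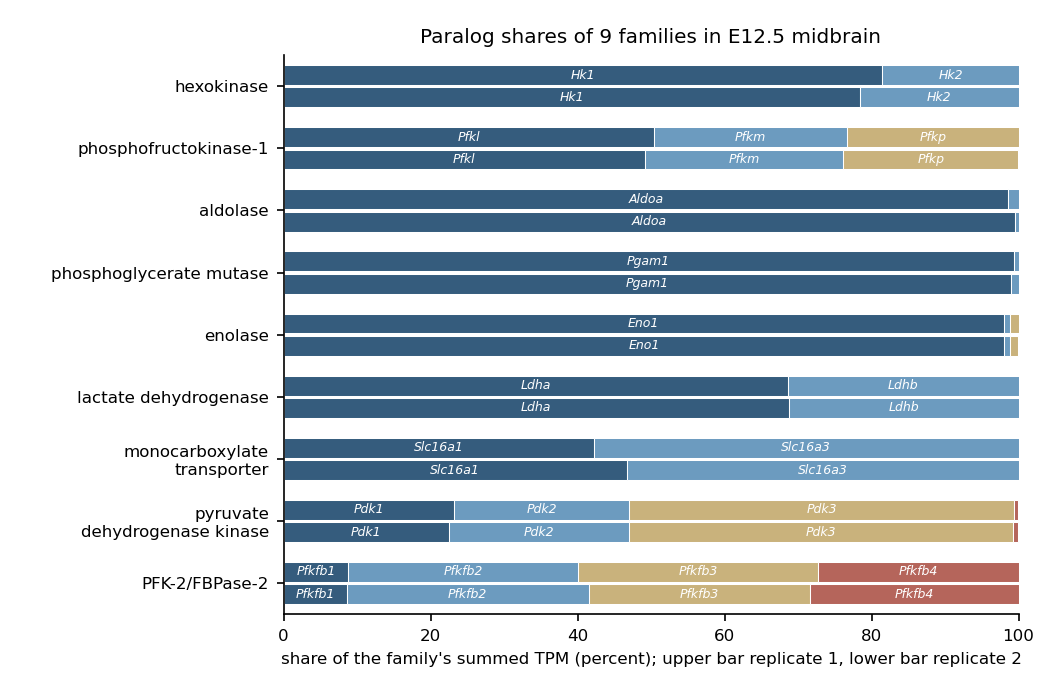
Share of each paralog in the summed TPM of its family, in percent, for 9 families, with the upper bar of each pair for replicate 1 and the lower for replicate 2. One gene holds over 95% of aldolase, phosphoglycerate mutase and enolase, while phosphofructokinase, the lactate transporters, the kinases of pyruvate dehydrogenase and the bifunctional enzymes are divided.

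Among the 4 pentose phosphate genes of the list, the entry enzyme had the lowest level and transaldolase the highest. G6pdx, the X-linked dehydrogenase that commits glucose 6-phosphate to the pathway, stood at 43.3 and 44.2 TPM, which is 1.01 times the hexokinase sum. Pgd, which makes the second NADPH, stood at 96.9 and 106.5 TPM. The enzymes of the non-oxidative arm followed, with Tkt, transketolase, at 106.6 and 119 TPM and Taldo1, transaldolase, at 279 and 293 TPM. Pgd and Tkt, at means of 102 ± 6.83 and 113 ± 8.53 TPM (SD, n = 2), lay close, with Tkt the higher in both libraries. Among other genes of the pathway, the lactonase gene Pgls stood at 173 and 178 TPM, the phosphoribosyl pyrophosphate synthetase gene Prps1 at 49.4 and 55.0 TPM, and the epimerase gene Rpe at 40.1 and 39.5 TPM. Levels over the genes named here thus had no single order, since Pgls, the step after G6pdx, lay above Pgd and Tkt, and Rpe lay below G6pdx. The 3 further genes were the highest of their list. Rpia, added here after its values were seen, stood at 3.13 and 2.00 TPM.

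The 2 pools were then compared to find how far these levels vary between collections of the same tissue. With 1 library per pool and 1 group, a two-sided exact binomial test on counts compares these libraries and not conditions, and its p-values take no account of the spread between pools. A gene was called different at a Benjamini-Hochberg adjusted p under 0.05 over 18939 genes, a ratio of at least 1.5 after TMM scaling and a mean of at least 1 TPM. Of the 36 genes, 35 reached that mean, and 2 were called, while 3.56% of the 15199 genes at that level were called (541 genes). The 2 were Pgam2, higher in replicate 2, where 2.18% of all genes were called higher, and Aldoc, lower, where 1.38% were called lower.

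Aldoc (ENSMUSG00000017390.11, chr11:78322968-78327781, plus strand) had 96 counts in replicate 1 and 60 in replicate 2. After scaling it was 2.05-fold higher in replicate 1 (95% exact binomial interval 1.48 to 2.89, counting error only), with an adjusted p of 1.36e-04 in the exact binomial test. Pgam2 (ENSMUSG00000020475.3, chr11:5801640-5803733, minus strand) had 34 and 75 counts and was 1.70-fold higher in replicate 2 (interval 1.13 to 2.65), with an adjusted p of 0.041 in that test. Both rested on fewer than 100 counts per library, and their deposited TPM intervals overlapped, at 3.26 to 6.16 against 1.53 to 3.30 TPM for Aldoc and 1.76 to 3.46 against 3.44 to 5.44 TPM for Pgam2. Neither was called by edgeR's exact negative binomial test, with adjusted p of 0.051 and 0.54. Its common dispersion was estimated from the same 2 libraries taken as 1 group, so the differences tested also set the spread, and it is no independent measure of how pools vary. That test called 0 of the 36 genes and 1.33% of all genes. An unadjusted p under 0.05 in it was reached by 2 of the 36, against 1327 of all 18939 tested genes.

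The abundant genes differed little between pools. At any ratio, 22.9% of all tested genes passed the exact binomial test at an adjusted p under 0.05. They split into 2170 higher and 2172 lower in replicate 2. Among genes at a mean of at least 1 TPM, 26.5% passed. This test passes smaller ratios at higher counts, and 24 of the 36 genes had a mean of at least 1000 counts. The shares are therefore not matched for depth. Of the 36 genes, 12 passed, 10 higher and 2 lower. Those higher were Slc16a1, Aldoa, Gapdh, Pgam1, Pgam2, Eno1, Pkm, Pdk2, Pgd and Tkt, and those lower were Aldoc and Pdha1. Pkm was 1.05-fold higher in replicate 2 (interval 1.04 to 1.07) and Gapdh 1.04-fold higher (interval 1.02 to 1.06). Pdk2 had the largest such ratio apart from Pgam2, at 1.20-fold (interval 1.08 to 1.34), and Pdha1 was 1.12-fold higher in replicate 1 (interval 1.07 to 1.16). Of the 24 genes with a mean of at least 1000 counts, the SD of the log2 ratio was 0.080, against 0.14 over 7181 genes of that depth, and Pdha1 was farthest from 0 at -0.16. The median log2 ratio of the 35 genes was 0.04, with 24 of them higher in replicate 2, and the median over all 15199 genes was 0.00, with 7756 higher. Median log2 ratios of red cell, mesenchyme, endothelium and macrophage markers were 0.15, 0.44, 0.21 and 0.27. In these lists 10 of 11, 7 of 7, 7 of 8 and 8 of 8 markers were higher in replicate 2. The medians of neuron and progenitor markers were -0.11 and -0.08, although 3 and 4 of 11 were higher in replicate 2. The summed TPM of the progenitor list was close, at 3312 and 3314. The part of these cell types in the ratios was not tested. The 5 X-linked genes, Pgk1, Pdha1, Pdk3, G6pdx and Pfkfb1, had ratios of either sign.

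**Figure D5:**
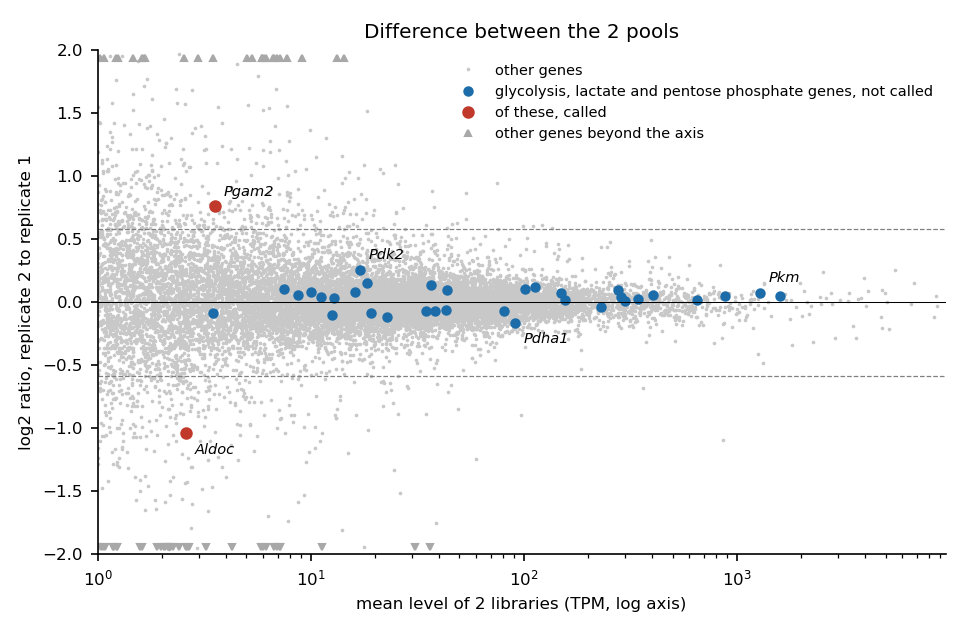
Log2 ratio of replicate 2 to replicate 1 from scaled counts against mean level in TPM on a log axis, for genes at 1 TPM or more, with dashed lines at a ratio of 1.5 and triangles for other genes beyond the axis. Of the 35 glycolysis, lactate and pentose phosphate genes shown, Pgam2 and Aldoc lie outside the dashed lines, and both are at low levels.

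No further gene of these pathways was called between the pools. Of 48 further genes of glucose transport and glycolysis, pyruvate and lactate, and the pentose phosphate pathway, 15 were under 1 TPM in both libraries and 31 were tested at a mean of at least 1 TPM. None of the 31 was called by the exact binomial rule, which called 3.56% of all genes. The exact negative binomial test of edgeR called 0 of them, against 1.33% of all genes. Of the 40 tested at any level, 15 and 3 reached an unadjusted p under 0.05 in these tests. Over all 18939 tested genes the counts were 6126 and 1327. At any ratio, 9 of 40 passed the exact binomial test at an adjusted p under 0.05, 6 higher and 3 lower in replicate 2. The share was close to the 22.9% of all tested genes that passed, 2170 higher and 2172 lower. The highest of the first list after Slc2a1 were Bpgm, the mutase that makes 2,3-bisphosphoglycerate in red cells, at 60.8 and 63.3 TPM, and the phosphatase gene Minpp1 at 50.9 and 56.1 TPM. The testis genes Pgk2 and Pdha2 and the gluconeogenic gene Fbp1, which were chosen for mention after their values were seen, had 0 counts in both libraries, which allows up to 3 counts per library.

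Transcript models bear on several of these values. The 36 genes have 232 transcripts in the files, all of them found in GENCODE M21 by identifier without version, and 31 genes have more than 1. The same transcript led in both libraries for 34 of 36 genes. Coding transcripts held a median of 97.3% of a gene's TPM, at least 90% for 27 genes and under 50% for 3. Short non-coding models took a larger part of TPM than of counts, as in Hk2, where Hk2-202 (594 nt, all within Hk2-201) held 32.2% and 37.3% of TPM from 4.17% and 5.15% of counts.

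Few estimated counts were assigned to the pseudogene copies that carry the name of one of the 36 genes, which does not show how many reads were shared. The 6 such pseudogenes of Gapdh, Ldha and Pgam1 held 0.563% and 0.750% of the counts of these genes and their copies together. Pgam1-ps2 on chromosome 7 held most, with 238 and 444 estimated counts, which is 1.92% and 2.67% of Pgam1 and that copy together. Copies with other names were not counted. Genes on the opposite strand overlap 10 of the 36 genes at 1 TPM or more, among them Iffo1 at Gapdh (15.1 and 15.4 TPM), Senp1 at Pfkm (33.4 and 34.1 TPM) and Pitrm1 at Pfkp (51.0 and 55.9 TPM), the 3 chosen after their values were seen. Whether counting used the strand is not given in the sources used here, so reads of such partners could be mixed.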

How the data were processed

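RNA of 2 midbrain pools was sequenced in an assay labelled total RNA-seq, and the labels put both libraries in 1 group. The authors deposited expected counts, estimated counts per gene and transcript that need not be whole, together with TPM values normalised to effective length and library, per the file headers. A transcript's share of its gene was deposited as isoform percent, and deposited interval bounds of TPM were treated as a signal, per the file headers. The files used mm10 and GENCODE M4, per the deposited notes, and the aligner is not given in the sources used here. The labels' protocols link the user manual for SMARTer Ultra Low RNA libraries, and how the RNA was primed is not stated in the sources used here.

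GENCODE M21, built on that assembly too, supplied names, classes and coordinates, with 42462 of 43346 gene identifiers matched. Counts were rounded, spike-ins (4.14% and 3.48% of counts) and 26248 numbered features were left out, and TMM factors from edgeR 4.0.16 in R 4.3.3 were 0.997 and 1.003. Genes with at least 10 counts summed were tested. Ratios had 0.5 counts added, and intervals are 95% exact binomial. DESeq2 1.42.0 supplied alternative size factors. The scripts were tested on simulated data. The members and lists were chosen with earlier results of these data known. Named genes are all members, called genes, the 3 highest of each wider list, the splicing regulators, the 2 highest of cell type lists, and every muscle marker. Since the labels say that the replicates are separate pools, p-values measure counting error between these pools.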

Additional observations from a re-analysis of the deposited data

How the results depend on the processing

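Removing the TPM minimum or lowering the ratio threshold can only add calls, so under those settings genes already called had to stay called. The count of 2 called genes of the 36 held with DESeq2 or total-count scaling, with at least 50 counts, with no TPM minimum and with the lower of the ratio thresholds tried, and Aldoc and Pgam2 were the genes called each time. It was 1 with no minimum count (Aldoc alone), 0 at a mean of at least 5 TPM, 12 with no ratio threshold (26.5% of all genes), 0 with edgeR's exact negative binomial test, and 0 where deposited intervals also had to be apart, an alternative chosen after seeing the data. The count of 0 among the wider pathway genes became 2 (H6pd and Rpia, named after their values were seen) at that lower ratio threshold, where 8.49% of all genes were called. The median log2 ratio lay between 0.04 and 0.07 under every scaling, unit and pseudocount tried. The share of all TPM was 0.786% with the posterior mean, 0.926% of nuclear protein-coding genes, and 0.680% on coding transcripts, again chosen after seeing the data. The median share of the leading paralog over 9 families was 68.6%, against 72.7% with expected counts and 68.5% on coding transcripts. With 2 libraries, leaving out 1 only returns the value of the other, so it is no test of stability. The single-library values were 0.797 to 0.819% for the share of TPM and 68.6 to 68.7% for that median. They were 82.2 to 83.6% for the M2 share and 0.563 to 0.750% for pseudogene counts. Among single genes, coding transcripts alone changed TPM by over 10% for 9 genes, placing all counts on the leading coding transcript did so for 8, and the posterior mean for 5. Some orders changed with the unit. Eno3 stood above Eno2 by TPM but held 0.724% of enolase expected counts, against 1.02% for Eno2. Slc16a3 led Slc16a1 by TPM but held 36.4% of the pair's expected counts, and Gapdh stood above Pkm by TPM but at 566 against 1291 TPM on coding transcripts. Among the bifunctional genes, Pfkfb3 led in replicate 1 and Pfkfb2 in replicate 2 by TPM. On coding transcripts Pfkfb3 led in replicate 1 and Pfkfb4 in replicate 2, and by expected counts Pfkfb3 led in both. The causes of these changes were not tested, other than fewer genes passing a stricter minimum. No paired analysis was possible because the libraries form 1 group. Having 2 pools limits the precision of every SD.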
